A study of Mus musculus with 6 samples.

Results

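The genes described here are 39 that encode the contractile apparatus of striated muscle or proteins bound to it, chosen by symbol and all found among the 49492 genes of the deposited table. The RNA is labelled as from HL-1, a mouse line known as an immortal line of atrial muscle origin, a label that the marker genes given further on go against. Of the 6 libraries, 3 are labelled vector and 3 carry overexpressed ZNF593-AS, a long noncoding RNA of human origin whose own level was not analysed here. Palmitic acid, a saturated fatty acid, was given to both groups, so no library shows the line without it. Titles place all 3 treated libraries under ZNF593-AS, while the treatment fields of replicates 2 and 3 name ZNF594-AS and ZNF595-AS, and the titles were followed. The labels give neither the dose and duration of palmitic acid nor whether the replicates were separate cultures, so a p-value here reflects the spread among these 6 libraries, which may be technical. Total counts ran from 51470457 to 84547615 per library.

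The sarcomere is the repeating unit of striated muscle. Thick filaments of myosin slide along thin filaments of actin, the troponins and tropomyosin switch the thin filament on in response to calcium, titin and the M-band proteins hold the thick filaments in register, and the Z-disc anchors the thin filaments. Cells that do not form sarcomeres use close relatives of the same proteins, encoded by other genes, in stress fibres and the cell cortex. Adult atrial myocytes are known for large amounts of Myh6, Actc1, Myl4, Myl7, Tnnt2 and Tnni3 RNA.

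17 of the 39 genes remained expressed, taken here as a mean of at least 1 CPM (counts scaled to library size, with TMM factors) over the 6 libraries, and 22 were under that level. The levels split widely. 10 genes lay above 60 CPM, the lowest of them being Pdlim5 at a mean of 66.5 CPM, and 7 lay between 1.14 CPM (Myom1) and 5.37 CPM (Tnnc1). The highest of the 22 low genes was Acta1 at 0.488 CPM, and 19 of the 39 genes had fewer than 100 counts over all 6 libraries together. Tpm4, Tpm3, Ankrd1 and Des made up 85.9% to 87.0% of the summed CPM of the 39 genes in every library. The expressed genes comprised 1 of 8 thick filament genes, 7 of 13 thin filament genes, 2 of 3 titin and M-band genes, 4 of 9 Z-disc genes, 3 of 4 genes of intermediate filaments, junctions and stretch response, and neither of the genes for oxygen and energy supply. In bulk RNA, fewer cells that express a gene and less of its RNA per cell cannot be told apart.

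**Figure D1:**
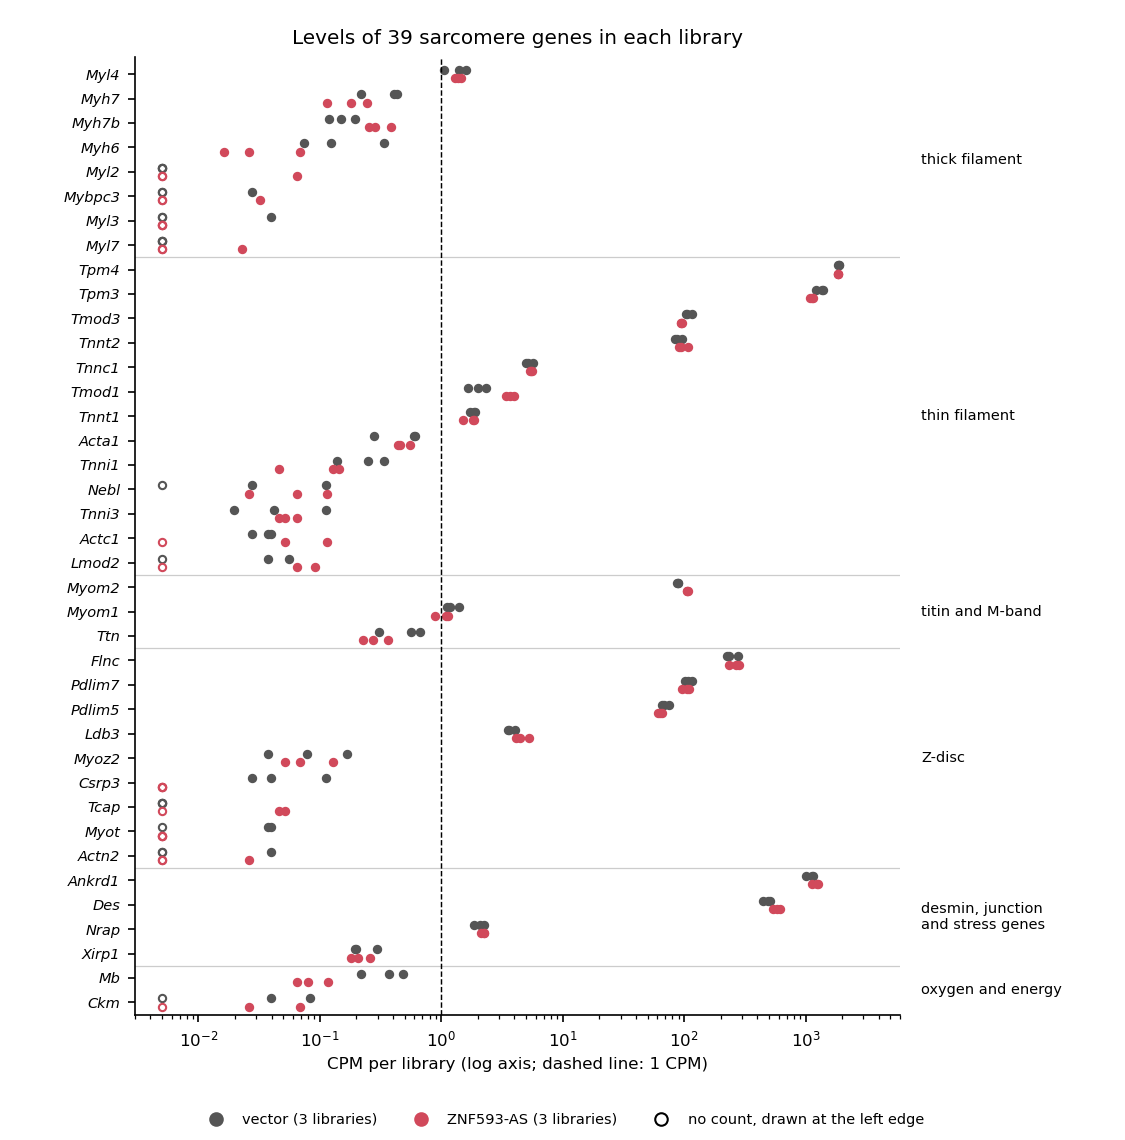
CPM of each of the 39 genes in each of the 6 libraries, on a log axis, grouped by role, with grey points for the 3 vector libraries and red points for the 3 ZNF593-AS libraries, and open points at the left edge for libraries with no count. 17 genes have a mean of at least 1 CPM (dashed line), and within most genes the libraries of both groups lie close together compared with the distance between genes.

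The bases before the start sites of 6 genes are shown because these genes carry the main contrasts: Des and Tmod1 were higher with ZNF593-AS, Ankrd1 and Tnnt2 are cardiac genes that remained abundant, Tpm3 was lower and has separate start sites for different protein forms, and Myh6 was close to absent. Each window holds the 250 bases before a RefSeq start on GRCm38.p6, written 5′ to 3′ on the gene's strand, and capitals mark an E-box searched as CAGCTG, which reads the same on both strands, or an MCAT element searched as CATTCC on both strands. E-boxes are bound by the MyoD family of muscle regulators among others, and MCAT elements by TEAD factors.
Des, chr1:75360042-75360291, plus strand: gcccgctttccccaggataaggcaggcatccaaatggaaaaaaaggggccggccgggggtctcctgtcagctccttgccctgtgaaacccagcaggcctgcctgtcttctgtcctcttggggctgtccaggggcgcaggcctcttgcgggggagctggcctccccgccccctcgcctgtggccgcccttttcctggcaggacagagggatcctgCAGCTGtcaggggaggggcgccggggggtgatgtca
Tmod1, chr4:46038972-46039221, plus strand: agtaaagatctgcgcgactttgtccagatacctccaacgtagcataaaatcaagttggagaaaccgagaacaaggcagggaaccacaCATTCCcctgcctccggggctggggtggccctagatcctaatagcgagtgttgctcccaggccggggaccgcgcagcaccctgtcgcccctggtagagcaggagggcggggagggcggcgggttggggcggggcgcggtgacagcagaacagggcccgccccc
Ankrd1, chr19:36119845-36120094, minus strand: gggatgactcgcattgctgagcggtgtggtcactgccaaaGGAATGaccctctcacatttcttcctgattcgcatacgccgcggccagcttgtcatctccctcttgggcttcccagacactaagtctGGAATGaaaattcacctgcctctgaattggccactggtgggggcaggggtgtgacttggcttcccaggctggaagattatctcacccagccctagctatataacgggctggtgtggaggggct
Tnnt2, chr1:135836084-135836333, plus strand: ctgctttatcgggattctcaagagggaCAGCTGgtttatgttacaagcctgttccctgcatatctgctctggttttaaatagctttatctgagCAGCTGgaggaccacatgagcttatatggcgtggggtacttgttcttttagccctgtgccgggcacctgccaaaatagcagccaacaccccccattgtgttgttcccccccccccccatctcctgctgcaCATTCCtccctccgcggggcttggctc
Tpm3 upstream start, chr3:90072401-90072650, plus strand: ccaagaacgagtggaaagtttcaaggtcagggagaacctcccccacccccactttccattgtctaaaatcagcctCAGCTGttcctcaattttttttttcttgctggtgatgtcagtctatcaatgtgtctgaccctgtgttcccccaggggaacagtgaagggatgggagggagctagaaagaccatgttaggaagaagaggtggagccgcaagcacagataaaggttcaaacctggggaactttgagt
Tpm3 downstream start, chr3:90079271-90079520, plus strand: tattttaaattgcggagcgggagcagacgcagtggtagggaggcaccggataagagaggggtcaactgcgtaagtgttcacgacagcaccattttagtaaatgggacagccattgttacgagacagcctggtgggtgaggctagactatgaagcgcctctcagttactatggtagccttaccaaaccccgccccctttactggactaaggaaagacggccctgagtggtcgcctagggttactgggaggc
Myh6, chr14:54966608-54966857, minus strand: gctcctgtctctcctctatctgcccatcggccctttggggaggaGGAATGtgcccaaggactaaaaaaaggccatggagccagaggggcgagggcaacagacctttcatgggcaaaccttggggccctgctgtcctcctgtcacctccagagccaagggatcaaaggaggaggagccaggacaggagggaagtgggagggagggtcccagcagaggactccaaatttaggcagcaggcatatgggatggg

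RefSeq windows were found for 34 of the 39 genes, 15 of them expressed and 19 under 1 CPM. The MCAT element was present for 11 of the 34, namely 5 expressed genes (Ankrd1, Flnc, Tmod1, Tnnc1 and Tnnt2) and 6 low ones, Myh6 and Myh7 among them. Over all 32851 windows of this length 12.6% held it. The E-box was present for 11 genes, 4 expressed (Des, Nrap, Tnnt2 and Tpm3) and 7 low, against 13.0% of all windows. The CArG box, the site of serum response factor, was present for 7 genes, of which Ldb3 and Myom1 were expressed, against 1.47% of all windows. The MEF2 site was present for Mybpc3, Myoz2 and Ttn, all low, against 2.92%. Some genes have several windows, so the shares by gene and by window are not on the same base. The MCAT element, the E-box and the CArG box were thus found before both expressed and low genes. The MEF2 site was found before 3 genes, too few to set it apart from the others. A match is a description of the sequence and not of binding.

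Thick filament genes were the lowest of the large groups. Myh6, the cardiac alpha myosin heavy chain, had 4, 17 and 9 counts in vector replicates 1 to 3 and 6, 2 and 1 counts in ZNF593-AS replicates 1 to 3. Its highest level in any library was 0.336 CPM. Myh7, the beta heavy chain, stood at 0.409, 0.217 and 0.429 CPM with vector and at 0.114, 0.181 and 0.242 CPM with ZNF593-AS, groups that overlap. Myh7b, another heavy chain gene of slow and cardiac muscle, went the other way in value, from 0.149, 0.118 and 0.194 CPM to 0.252, 0.285 and 0.388 CPM. Neither passed the test at this depth (edgeR adjusted p = 0.182 for Myh7 and 0.208 for Myh7b). Of the 50-base stretches of Myh6, 20.2% also occur in Myh7, so reads could have been divided between them.

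The myosin light chains showed an atrial form at a low level and little else. Myl4, the atrial essential light chain, was the single expressed thick filament gene, at 1.06, 1.40 and 1.59 CPM with vector and 1.37, 1.31 and 1.45 CPM with ZNF593-AS (log2 fold change 0.02 ± 0.19 (SE), edgeR adjusted p = 0.975). Its partner in the atrium, the regulatory light chain Myl7, had 2 counts in all 6 libraries together. The ventricular light chains Myl2 and Myl3 had 4 and 2 counts, and Mybpc3, the cardiac myosin-binding protein C, had 4. A total of 0 counts in a group, as for Myl2 and Myl7 with vector or Myl3 with ZNF593-AS, allows up to 0.0340 CPM over the vector libraries and 0.0265 CPM over the ZNF593-AS libraries, taking 3 read pairs as the floor and counting error only.

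The thin filament divided by component. Both sarcomeric actins were low: Acta1, the skeletal form, was between 0.276 and 0.609 CPM in the 6 libraries and Actc1, the cardiac form, had 20 counts in total. The troponins gave a cardiac T, a slow C and almost no I. Tnnt2, cardiac troponin T, stood at 95.7, 83.9 and 88.0 CPM with vector and 94.9, 90.3 and 107 CPM with ZNF593-AS, and the groups overlap (log2 fold change 0.13 ± 0.07, edgeR adjusted p = 0.356). Tnnc1, the troponin C of slow and cardiac muscle, was lower, between 5.0 and 5.67 CPM in all 6 libraries, and Tnnt1, the slow skeletal troponin T, lay between 1.51 and 1.91 CPM. Of the inhibitory subunits, Tnni3, the adult cardiac form, had 22 counts in total and Tnni1, the slow and fetal form, had 66. Tnni1 was at 0.241 ± 0.0986 CPM (SD, n = 3) with vector and 0.106 ± 0.0525 CPM with ZNF593-AS, groups that overlap, and did not pass (edgeR adjusted p = 0.198). Per length of exon, in TPM (levels per exon length, summing to the same total in each library), Tnnt2 averaged 27.4, Tnnc1 11.8, Tnnt1 1.84, Tnni1 0.108 and Tnni3 0.0611 TPM.

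The tropomyosin genes Tpm3 and Tpm4 were the most abundant of the 13 thin filament genes among the 39. Both encode cytoskeletal forms, and counts per gene do not separate the forms of a gene, so their levels do not measure sarcomeric tropomyosin RNA. Tpm4 was at 1893, 1883 and 1850.2 CPM with vector and 1863, 1838 and 1848 CPM with ZNF593-AS, groups that overlap (-0.02 ± 0.07, edgeR adjusted p = 0.913), and 99.7% of the genes with any count lay below its mean TPM. Gm26586 overlaps 6.1% of its exon bases on the opposite strand and was at 1034 ± 4.75 CPM with vector and 1009 ± 12.9 CPM with ZNF593-AS (adjusted p = 0.823). Tpm3 went from 1227, 1383 and 1372 CPM to 1136, 1081 and 1142 CPM. All 3 vector libraries were above all 3 ZNF593-AS libraries. Its log2 fold change was -0.25 ± 0.07 (edgeR adjusted p = 0.0499), a call at the edge of the threshold that ended when library totals replaced TMM scaling (-0.16, adjusted p = 0.168), with the replicate number as a block (adjusted p = 0.0583), among genes of at least 1 CPM (adjusted p = 0.0549), with halved counts (adjusted p = 0.0584), and without any single library except vector replicate 1 (adjusted p 0.111 to 0.224). Tpm3 shares 23.2% of its 50-base stretches with the copy Tpm3-rs7, which stood at 36.0 ± 4.25 and 33.0 ± 1.32 CPM.

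Tropomodulins cap the slow-growing end of actin filaments, Tmod1 in striated muscle and red cells and Tmod3 in most cells. Tmod1 was at 1.67, 2.01 and 2.35 CPM with vector and 3.43, 3.99 and 3.65 CPM with ZNF593-AS. The groups do not overlap, and every ZNF593-AS library was above the highest vector library. Its log2 fold change of 0.86 ± 0.15 (edgeR adjusted p = 0.000802), or 1.82-fold, was the largest rise among the called genes of the 39, and the call held under every alternative tried. Tmod1 overlaps Tstd2 on the opposite strand over 32.6% of its exon bases. Reads in the shared bases cannot be told apart without strand, and Tstd2 had 13416 counts in all against 1196 for Tmod1. The level of Tmod1 is therefore uncertain. Tstd2 was at 34.1 ± 2.11 CPM with vector and 32.8 ± 0.749 CPM with ZNF593-AS (log2 fold change -0.06 ± 0.07, edgeR adjusted p = 0.703). Tmod3, in contrast, was at 104, 105 and 117 CPM with vector and 94.7, 93.6 and 95.4 CPM with ZNF593-AS, groups that do not overlap. Its log2 fold change of -0.20 ± 0.06 did not pass edgeR (adjusted p = 0.0577) and passed DESeq2 (adjusted p = 0.0353). Per length the mean of Tmod3 was 20.9 TPM and that of Tmod1 1.66 TPM. Nebl, the cardiac nebulette, and Lmod2, the leiomodin that lengthens thin filaments, had 24 and 18 counts in all.

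Titin and the M-band gene Myom2 lay far apart. Ttn, the giant spring of the sarcomere, had 152 counts over its 116825 exon bases, or 0.00771 TPM. Myom2, a myomesin that crosslinks thick filaments at the M-band, was at 25.0 TPM, while the related Myom1 was at 0.455 TPM. Myom2 stood at 88.3, 86.6 and 88.7 CPM with vector and at 105, 105 and 108 CPM with ZNF593-AS. The spread within each group was far smaller than the gap between them, and the groups do not overlap. The log2 fold change was 0.27 ± 0.06 (edgeR adjusted p = 0.0045), or 1.21-fold, a call that held under every alternative tried. Myom1 was between 0.888 and 1.40 CPM and did not pass (-0.23 ± 0.20, edgeR adjusted p = 0.579), and neither did Ttn (-0.79 ± 0.37, adjusted p = 0.246).

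Z-disc genes were either well expressed or close to absent. Flnc, the muscle filamin, stood at 233, 226 and 280.4 CPM with vector and 284, 267 and 236 CPM with ZNF593-AS. The PDZ and LIM adaptor gene Pdlim7 lay between 96.8 and 117 CPM and Pdlim5 between 61.0 and 74.5 CPM. The groups overlap for Flnc and Pdlim7 and do not for Pdlim5, which did not pass (-0.14 ± 0.06, edgeR adjusted p = 0.247). Ldb3, another adaptor of this class, had 4.02, 3.52 and 3.60 CPM with vector and 4.11, 5.30 and 4.43 CPM with ZNF593-AS and did not pass (0.31 ± 0.13, adjusted p = 0.169), except with library totals in place of TMM scaling (0.41, adjusted p = 0.0430). The other 5 were near 0. Actn2, the alpha-actinin that crosslinks thin filaments in the Z-disc, had 4 counts in all. Myot (myotilin) also had 4 counts, Tcap (the titin cap protein telethonin) 8, Csrp3 (muscle LIM protein) 10 and Myoz2 (calsarcin) 36.

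Des, the muscle intermediate filament that links Z-discs to each other, was among the most abundant of the 39 genes. It had 508, 444 and 494 CPM with vector and 543, 611 and 579.6 CPM with ZNF593-AS, with no overlap. The log2 fold change was 0.26 ± 0.07 (edgeR adjusted p = 0.0363), and the call ended when replicate 2 or 3 of either group was left out (adjusted p 0.0602 to 0.200). Ankrd1, the cardiac ankyrin repeat protein that responds to stretch and stress, was at 1161, 1005 and 1131 CPM with vector and 1139, 1255 and 1245 CPM with ZNF593-AS, groups that overlap. Per length only Tpm4 was above it among the 39, at 1926 TPM, and Ankrd1 did not pass (0.14 ± 0.08, edgeR adjusted p = 0.324), although it did with library totals (0.23, adjusted p = 0.0306). Nrap, an anchoring protein of assembling myofibrils, lay between 1.86 and 2.27 CPM, and Xirp1, an actin-binding repeat protein of cell junctions, had 88 counts.

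Mb, the oxygen-binding protein myoglobin, had 26, 11 and 27 counts with vector and 7, 9 and 4 with ZNF593-AS, or 0.358 ± 0.134 and 0.0871 ± 0.0267 CPM (SD, n = 3). The groups do not overlap and the log2 fold change was -2.01 ± 0.47 (edgeR adjusted p = 0.0112), yet Mb passed the filter on low counts through the vector libraries alone, the call ended when vector replicate 1 (adjusted p = 0.0781) or ZNF593-AS replicate 3 (adjusted p = 0.0604) was left out, and Mb dropped out of the test when counts were halved. Of the 50-base stretches of Mb 24.9% also occur in other genes, nearly all of them in Gm49540, so its reads could have been divided. Mb overlaps Apol6 on the opposite strand over 5.1% of its exon bases. Apol6, an apolipoprotein L gene, went from 1.34 ± 0.315 to 0.374 ± 0.172 CPM (-1.86 ± 0.32, edgeR adjusted p = 0.000827), and reads in the shared bases cannot be told apart without strand. Ckm, the muscle creatine kinase, had 16 counts in all.

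Counted together, 24 of the 39 genes passed the filter on low counts, 3 were called higher (Tmod1, Myom2 and Des) and 2 lower (Tpm3 and Mb), and 19 did not pass. Among all 16473 genes tested 8.40% were called, 2.23% higher and 6.16% lower. Of the 24, 9 had groups that did not overlap, beside 25.8% of all genes tested, and 5 were higher and 5 lower at an unadjusted p under 0.05, beside 20.4% of all. The median log2 fold change of the 24 was -0.04, beside 0.01 over all genes tested. Mb passed the filter only through the vector group and Myh7b only through the ZNF593-AS group, and the 15 genes not tested had at most 39 counts each. With library totals in place of TMM scaling, which moved the median of all genes to 0.10, the calls were 6 higher (Tmod1, Myom2, Des, Tnnt2, Ldb3 and Ankrd1) and 1 lower (Mb), while 12.7% of all genes were then called, 7.79% higher and 4.92% lower. Of all calls 61.3% were then higher, against 26.6% with TMM, so the balance of rises and falls moved with the scaling while Tmod1, Myom2 and Des were called higher under both. The share of all genes called was 6.16% with no filter, 9.79% among genes of at least 1 CPM, 5.08% with DESeq2, 8.08% with the block and 8.96% with halved counts.

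**Figure D2:**
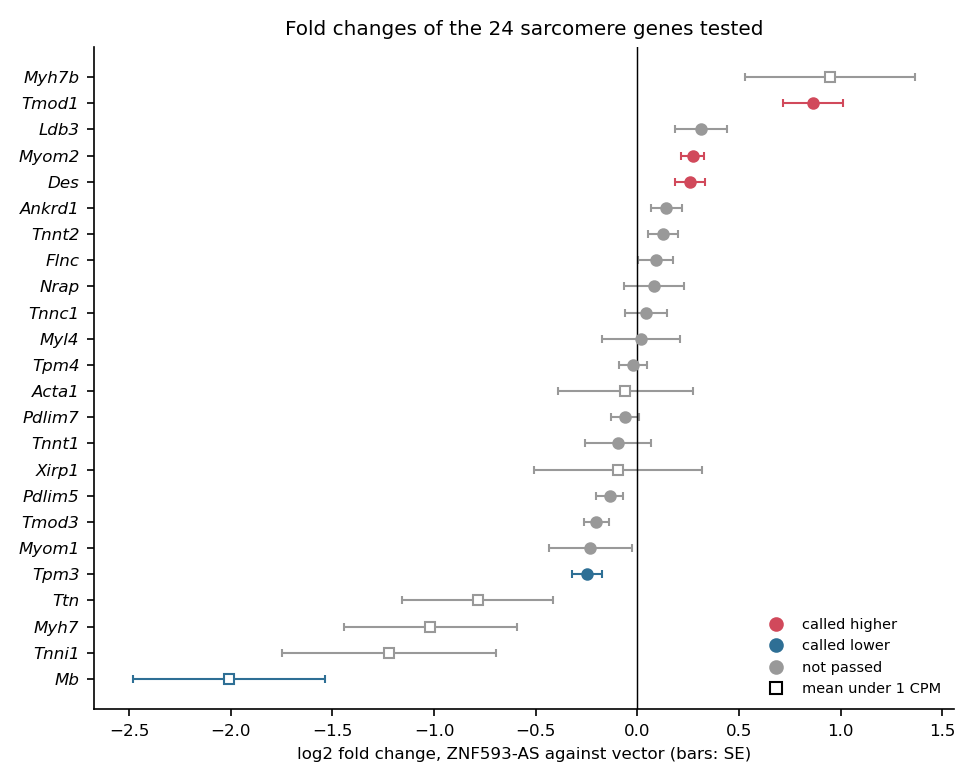
Log2 fold change of ZNF593-AS against vector for the 24 genes tested, with bars for the SE, red for genes called higher, blue for genes called lower and grey for the rest, and open squares for genes with a mean under 1 CPM. The genes under 1 CPM have the widest bars, and the called rises run from 0.26 (Des) to 0.86 (Tmod1).

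**Figure D3:**
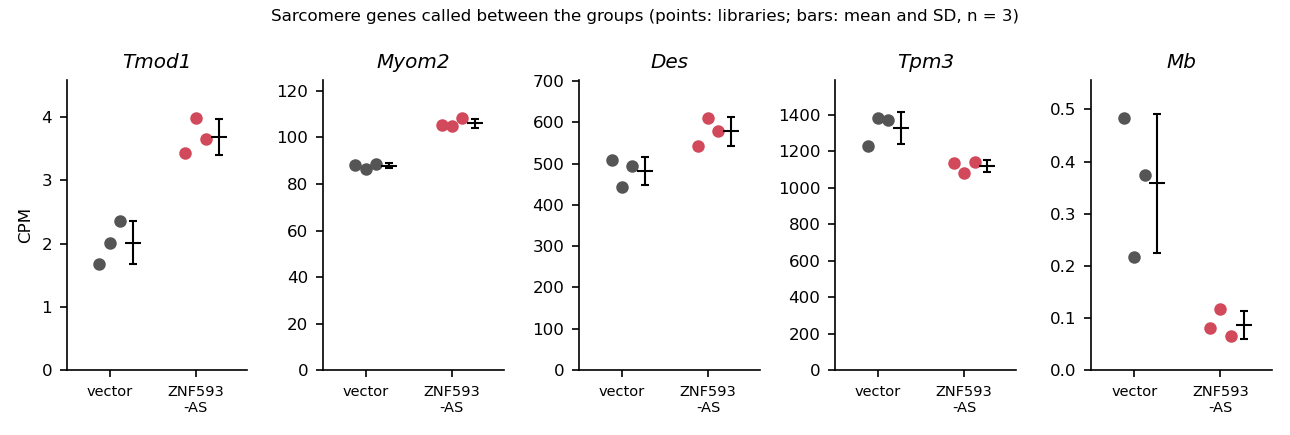
CPM of the 5 called genes in each library (points) with the mean and SD of each group (bars, n = 3), on linear axes that start at 0. In each panel the libraries of the groups do not overlap, and all points for Mb lie under 0.5 CPM.

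For most families compared the cytoskeletal relative was far more abundant than the striated-muscle form. The levels are TPM, summed over the genes named, in the 6 libraries, and were not TMM-scaled, so they serve to compare genes and not groups. The cytoplasmic actins Actb and Actg1 together gave 1054 to 1265 TPM, and Acta1 with Actc1 gave 0.452 to 0.949 TPM. The nonmuscle myosin heavy chains Myh9, Myh10 and Myh14 gave 838 to 926 TPM, against 0.145 to 0.227 TPM for Myh6, Myh7 and Myh7b. The alpha-actinins Actn1 and Actn4 gave 163 to 203 TPM, against at most 0.0237 TPM for Actn2. The essential light chains Myl6 and Myl6b gave 2687 to 3108 TPM, against 0.488 to 0.787 TPM for Myl3 and Myl4. The tropomyosin genes cannot be divided in this way, since counts per gene do not separate muscle from cytoskeletal forms. Tpm3 and Tpm4 encode cytoskeletal forms, and Tpm1, the main tropomyosin of heart muscle, has such forms as well. Tpm3 with Tpm4 gave 2261 to 2446 TPM and Tpm1 with Tpm2 gave 651 to 815 TPM, and neither pair stands for the striated-muscle form. The levels of the cytoplasmic actins are uncertain, since 37.4% of the 50-base stretches of Actg1, and 9.1% of those of Actb, also occur elsewhere.

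**Figure D4:**
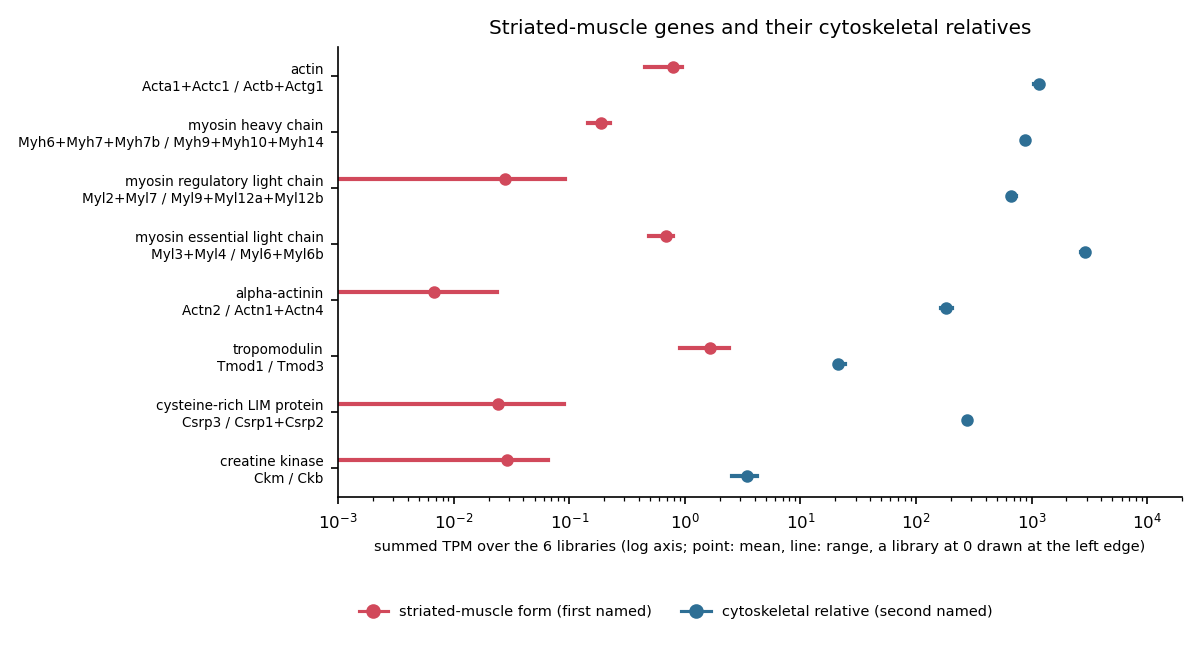
Summed TPM of the striated-muscle genes (red) and their cytoskeletal relatives (blue) in 8 protein families, on a log axis, with a point for the mean and a line for the range over the 6 libraries. The means of the forms lie more than an order of magnitude apart in each family drawn, and are closest for the tropomodulins, at 1.66 TPM for Tmod1 and 20.9 TPM for Tmod3.

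Of 37 cytoskeletal and smooth muscle relatives listed, 36 were tested, edgeR called 0 higher and 2 lower, and their median log2 fold change was 0.05. At an unadjusted p under 0.05 the counts were 6 higher and 2 lower, DESeq2 called 2 in each direction and limma-voom 0 higher and 2 lower. Of all genes tested, edgeR called 8.40% and DESeq2 5.08%, and 20.4% had an unadjusted edgeR p under 0.05. limma-voom called 337 higher and 1010 lower of 16473 genes. Both edgeR calls among the relatives were LIM domain genes. Pdlim1 fell from 38.1, 39.1 and 37.3 CPM to 29.4, 26.9 and 26.1 CPM (-0.47 ± 0.07, edgeR adjusted p = 0.000109), and Csrp1, a relative of Csrp3, from 141, 131 and 127 CPM to 113, 116 and 112 CPM (-0.23 ± 0.06, adjusted p = 0.0282). The call of Csrp1 ended with library totals (adjusted p = 0.186) and without vector replicate 1 or any ZNF593-AS library (adjusted p 0.0755 to 0.143). Acta2, smooth muscle actin, stood at 149, 128 and 139 CPM with vector and 156, 231 and 183 CPM with ZNF593-AS and did not pass edgeR (0.45 ± 0.13, adjusted p = 0.0583). The most abundant per length were Myl6 (2877 TPM), Vim, the mesenchymal intermediate filament (971 TPM), and Myh9 (796 TPM), and none of these passed. Tpm1, the main tropomyosin of heart muscle with cytoskeletal forms as well, was at 1266 ± 8.85 and 1413 ± 55.2 CPM and did not pass (0.16 ± 0.07, adjusted p = 0.204).

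Of 57 further genes of striated muscle, 33 were under 1 CPM, 36 were tested, 2 rose and 4 fell, and the median log2 fold change was -0.02. Among all genes tested 2.23% were called higher and 6.16% lower. Synpo2, an actin-bundling protein of the Z-disc, rose from 10.8, 10.4 and 11.98 CPM to 14.1, 15.1 and 14.9 CPM (0.41 ± 0.08, edgeR adjusted p = 0.0038). Mylk2, a myosin light chain kinase of skeletal muscle, rose from 3.05, 2.65 and 3.29 CPM to 4.52, 4.11 and 3.86 CPM (0.47 ± 0.13, adjusted p = 0.0309), a call that ended without replicate 1 or 2 of either group (adjusted p 0.0764 to 0.118). Capza2, a subunit of the protein that caps actin at the Z-disc and in other cells, fell from 212, 221 and 257 CPM to 171, 167 and 167 CPM (-0.45 ± 0.07, adjusted p = 0.000429). Capza1 and Capzb, genes of other subunits of this protein, did not pass (adjusted p = 0.339 and 0.597). The level of Capza1 is uncertain, since 64.5% of its 50-base stretches also occur in other genes. Fhod3, a formin needed for thin filaments, fell from 9.74 ± 1.04 to 6.79 ± 0.251 CPM (-0.52 ± 0.10, adjusted p = 0.0019), and Vcl, which anchors actin at junctions, and the small heat shock protein gene Cryab, a desmin chaperone, fell by 0.27 each on the log2 scale (adjusted p = 0.0139 and 0.0227). The calls of Vcl and Cryab ended with library totals (adjusted p = 0.108 for each), and each ended when vector replicate 1 or 3 was left out, or ZNF593-AS replicate 3 for Vcl and replicate 1 for Cryab (adjusted p 0.0533 to 0.130). Cryab, Capza2 and Capzb were the most abundant per length, at 92.6, 76.8 and 68.0 TPM.

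The cell type named in the labels was checked against its markers. Of 16 markers of atrial myocytes, 9 were under 1 CPM, and Nppa and Sln, which define atrial muscle, had no count. The abundant ones, among them Gja1, Stk39, Pam and Nr2f2, are found in other cells too, and Stk39 rose (0.28 ± 0.06, edgeR adjusted p = 0.0090). Bmp10 went from 1.66, 1.22 and 1.94 CPM to 0, 0 and 0.0323 CPM (edgeR adjusted p = 3.2e-08). Like Mb, Bmp10 passed the filter on low counts through the vector libraries alone. With a mean of 0.808 CPM it was not tested among genes of at least 1 CPM. The summed level of the list was 299 to 338 CPM with vector and 338 to 355 CPM with ZNF593-AS. The atrial markers Myl7, Nppa and Sln were at or near 0, as was the cardiac gene Myh6, which is not on that list. These levels go against the atrial label, and the libraries are called HL-1 here by that label alone. Of 18 listed genes of cardiac and muscle transcription factors with a row, 11 were at 1 CPM or more, with Gata4 at 9.50 ± 0.378 and 9.28 ± 0.943 CPM, Nkx2-5 at 0.617 ± 0.111 and 0.588 ± 0.118 CPM, Srf at 49.6 CPM in both groups, Tbx5 at 36 counts and Myocd at 24 counts in all. edgeR called 0 of the 14 tested, as did DESeq2 and limma-voom, beside 8.40% of all genes tested by edgeR and 5.08% by DESeq2. Of 16473 genes limma-voom called 337 higher and 1010 lower. At an unadjusted p under 0.05 there was 1 higher, Vgll2, and 1 lower, Tead1 (-0.19 ± 0.06, edgeR adjusted p = 0.0748), beside 20.4% of all genes. Myf5, a factor of skeletal muscle precursors, was at 37.4, 40.2 and 42.1 CPM with vector and 45.1, 45.1 and 40.5 CPM with ZNF593-AS. The related Myod1 was at 0.406 ± 0.225 and 0.446 ± 0.243 CPM, and Myog fell from 0.855 ± 0.0936 to 0.410 ± 0.0366 CPM (-1.07 ± 0.26, edgeR adjusted p = 0.0159), which no longer passed when vector replicate 1, vector replicate 3 or ZNF593-AS replicate 2 was left out (adjusted p 0.0565 to 0.0651). Of the 10 skeletal muscle markers with a row, 7 were under 1 CPM, and the list summed to 58.6 to 63.8 CPM with vector and 62.6 to 68.9 CPM with ZNF593-AS.

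Markers of other cells were read beside the called genes. Of all genes tested, edgeR called 8.40% and DESeq2 5.08%, and 20.4% had an unadjusted edgeR p under 0.05. By limma-voom 337 were higher and 1010 lower of 16473 genes. 9 of 14 smooth muscle and pericyte markers were at 1 CPM or more and Des, itself on that list, was the single call by edgeR and by limma-voom, while DESeq2 called 3 higher and 4 were higher at an unadjusted p under 0.05. Without Des the list summed to 349 to 382 CPM with vector and 403 to 503 CPM with ZNF593-AS. The sum was thus higher in all 3 libraries of the group in which Des, Myom2 and Tmod1 were higher. Acta2 alone held 128 to 149 CPM of it with vector and 156 to 231 CPM with ZNF593-AS. The log2 fold changes of the 13 genes of the list tested, Des included, ran from -0.51 to 0.45. Their median was 0.18, beside 0.01 over all genes tested, and 0 were lower at an unadjusted edgeR p under 0.05. The list thus lay mostly above 0, while single genes went both ways. Cnn1 was just under 1 CPM and Kcnj8 near 0. Of 16 fibroblast markers 6 were under 1 CPM, with Tcf21, Lum and Fap near 0, and the list, led by Fn1 and S100a4, summed to 1881 to 2024 CPM with vector and 1702 to 1852 CPM with ZNF593-AS. Col1a1, Col1a2 and Col3a1 fell and Pdgfra rose by edgeR. The call of Col1a2 ended with library totals (adjusted p = 0.131) and without any single library except ZNF593-AS replicate 3 (adjusted p 0.0545 to 0.197), and that of Col3a1 without ZNF593-AS replicate 2 (adjusted p = 0.0595). The call of Pdgfra ended with limma-voom (adjusted p = 0.0561) and without any single library except ZNF593-AS replicate 2 (adjusted p 0.0770 to 0.181). All 12 endothelial markers and 10 of 12 macrophage markers were under 1 CPM. Their sums were 2.65 to 2.93 and 8.91 to 9.75 CPM with vector and 3.12 to 3.72 and 10.05 to 11.4 CPM with ZNF593-AS, and of both lists Cd68 was the single call, higher (0.46 ± 0.13, edgeR adjusted p = 0.0316), which no longer passed when vector replicate 1, vector replicate 2, ZNF593-AS replicate 2 or ZNF593-AS replicate 3 was left out (adjusted p 0.0629 to 0.153). The part of other cell types in the changes of the sarcomere genes was not tested.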

How the data were processed

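Total RNA was isolated with Trizol and made into Illumina libraries, per the labels' protocols. The deposited values are raw counts of reads for each gene, held in 1 file for all 6 libraries beside exon coordinates and lengths. The submitters' processing notes name CASAVA, cutadapt 1.2.1, Bowtie2, TopHat2 and GRCm38. Which program counted the reads, whether by strand, and on which annotation, is not given in the sources used here. In every library 2160 to 2359 genes had a count of 2 and 365 to 492 a count of 1, so each mate of a read pair seems to have been counted on its own.

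Genes were filtered with filterByExpr (minimum count 10, minimum total 15), scaled by TMM and tested with edgeR 4.0.16 in R 4.3.3 (robust quasi-likelihood F test, 2-sided, no covariates, Benjamini-Hochberg over 16473 genes, threshold 0.05). CPM are counts scaled to TMM-adjusted library size. TPM use the exon length in the table, including rare exons. The SE is the log2 fold change divided by the square root of F. Replicates differed by more than sampling noise (chi-square on halved counts, at least 10.1 for each gene on average).

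Members and gene lists were chosen with earlier results of these data known. Named are all 39 genes and, of each list, up to 3 called genes per direction and the 3 highest in TPM, or the gene of smallest p. Acta2, Tpm1, Capza1 and the transcription factors and markers printed beyond these were chosen after their values were seen. Overlaps come from the exons in the table, shared 50-base stretches from GENCODE M21 transcripts and windows before start sites from RefSeq GRCm38.p6, with all 48 windows of 34 genes matched by symbol. Intervals and floors cover counting error only. Alternatives were RLE factors, library totals, other filters, DESeq2 1.42.0, limma-voom 3.58.1, a replicate block, halved counts and leaving out each library. In 3 simulations of 16295 to 16315 genes, used to test the script on simulated data, recovery was 85.7% for 1.5-fold changes and 97.7% for 2-fold changes, and 3.64% of calls were false. Changes were placed only in genes above a minimum mean count, and all genes were given the same dispersion. The recovery therefore does not apply to members with few counts.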

Additional observations from a re-analysis of the deposited data

How the results depend on the processing

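The number of expressed genes of the 39 was 17 and stayed between 14 (a mean of at least 1 TPM, or of at least 2 CPM) and 17 under every alternative tried, and at 17 without any single library. The number called was 5. It was 3 with genes of at least 1 CPM alone and 3 with halved counts, where Mb was not tested and Tpm3 did not pass, 4 with the replicate number as a block (same-numbered libraries did not deviate together, r -0.083 to 0.0602), 7 with library totals, 6 with DESeq2, and 2 to 4 without a single library. Tmod1 and Myom2 were called under every alternative. Among further striated muscle genes 6 were called, 6 with the replicate block and 3 to 5 without a single library. Among the cytoskeletal relatives 2 were called, 2 with the block, 8 with library totals (7 higher), 5 with no filter, 4 with DESeq2 and 1 to 4 without a single library. These counts stand beside shares of all genes called of 8.40% in the main fit, 12.7% with library totals and 5.08% with DESeq2. Without a single library, 138 to 394 of all genes were called higher and 827 to 962 lower, of 16537 to 16907 tested. With all 6 libraries the counts were 368 higher and 1015 lower of 16473. Tnnt2 passed with library totals (0.22, adjusted p = 0.0412). The median of the genes tested was -0.04 and became 0.05 with library totals, 0.05 with genes of at least 1 CPM and 0.10 without vector replicate 3. No called gene changed direction. Uncalled ones near 0 did: with library totals Acta1 (0.032), Tpm4 (0.071) and Pdlim7 (0.028), and without a single library Acta1 (-0.33 to 0.13), Myl4 (-0.12 to 0.16) and Xirp1 (-0.23 to 0.13). The causes were not tested. Of the 39 genes 19 had fewer than 100 counts in all, and 15 had too few to be tested.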
